A study of Mus musculus with 9 samples.

Results

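Proteins destined for membranes or secretion enter the endoplasmic reticulum (ER) while they are made. The signal recognition particle binds their signal peptide at the ribosome, the Sec61 channel takes the chain across the membrane and signal peptidase removes the signal. COPII coats then carry cargo from the ER towards the Golgi, COPI coats bring material back, and Tmed proteins, KDEL receptors and golgins select, retrieve and tether along the way. In astrocytes this machinery is of interest at the perivascular endfeet, processes that end on brain vessels and lie far from the cell body. The mRNAs of these components are described here as they were found in ribosome-bound RNA from whole brain and from purified vessels.

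The genes were chosen by symbol alone: the Sec genes with a number (without the Sec14l family), Ssr1 to Ssr4, the Srp genes, Srpr, Srprb, Spcs1 to Spcs3, the coatomer subunits, the Tmed, Kdelr and Golga genes. The rule found 69 of the 22072 genes with a matched transcript, each represented by 1 transcript. Of these 69 genes, 63 passed the filter on low counts and were tested with 14403 genes in all. Tmed6, Tmed11, Srp54a and Srp54b had 0 counts in all 9 libraries. Srp54a, Srp54b and Srp54c are near-identical copies, and reads that aligned more than once had been removed, so the values of all of them are uncertain. Sec31b had between 0 and 13 counts per library. Sec1, a fucosyltransferase that fits the rule by its symbol only, had between 0 and 67 counts. No transcript of Spcs1 was matched, and Spcs1 is not analysed here.

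All mice were 2 months old, of the strain labelled Aldh1L1 JD130, and carried the transgene tg:Aldh1L1-L10aGFP, in which the promoter of Aldh1l1, an astrocyte gene, drives a GFP-tagged ribosomal protein L10a. In translating ribosome affinity purification (TRAP), tagged ribosomes are precipitated with anti-GFP antibodies together with the mRNA bound to them. For whole astrocyte TRAP, 3 libraries were made from 1 brain each, freed of choroid plexus. For endfeet TRAP, 6 libraries were made from purified brain vessels, with the vessels of 8 mice combined in each, a design meant to collect ribosomes of the perivascular processes that stay on the vessels.

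Gene counts totalled 35956972 to 43487888 in the whole astrocyte libraries and 2318745 to 13445661 in the endfeet libraries. As the lowest amount that can be seen, 3 counts equalled 0.0659 to 0.0811 normalised CPM, read counts scaled to a common library size, in the former and 0.197 to 1.37 CPM in the latter, a limit for counting error only. The endfeet libraries varied far more, with a common dispersion of 0.724 against 0.0141. For the 63 tested genes the median SD of log2 CPM was 0.580 over the endfeet libraries and 0.108 over the whole astrocyte libraries. Endfeet library 1 was lowest of the 6 for 19 of these genes and highest for 18, and endfeet library 6, the shallowest, was lowest for 12 and highest for 18.

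The astrocyte mRNAs Slc1a2 and Aqp4, a transporter of glutamate and the water channel of endfeet, were abundant in every library, at 6461 CPM or more and 425 CPM or more. Markers of other vessel cells also differed between the groups, and in 1 direction. The summed level of 12 endothelial markers such as Cldn5 and Pecam1 was 8.09 to 10.1 CPM in whole astrocyte TRAP and 3377 to 5408 CPM in endfeet TRAP, and the endothelial mRNA Ly6c1 was at 0 in all whole astrocyte libraries. Sums for 10 mural markers (Rgs5, Acta2) were 42.5 to 47.8 against 4130 to 8638 CPM, and for 8 fibroblast markers (Dcn, Lum) 29.97 to 44.8 against 1613 to 2372 CPM. All 30 genes of these 3 lists passed the test as higher in endfeet TRAP. Of 10 microglial and macrophage markers 7 were higher (21.5 to 25.8 against 234 to 385 CPM). Of 7 tested markers of antibody-secreting cells 6 were higher (11.3 to 19.3 against 838 to 6083 CPM, most in library 6). Irf4 and Pou2af1 made up most of that sum, at up to 3272 and 2186 CPM. Tnfrsf17, Cd79a and Cd79b of the same list were not tested and had endfeet medians of 0, 0 and 0.577 CPM. Of 8 ependymal and choroid plexus markers 6 were higher (78.0 to 1482 against 6694 to 88726 CPM, most in library 1 and nearly all of it Ttr). Of 8 neuronal markers 3 were lower (3449 to 4005 against 978 to 1985 CPM), as was 1 of 7 oligodendrocyte markers (635 to 649 against 240.0 to 567 CPM). Of 12 astrocyte markers 1 was higher (Aqp4) and 5 were lower (Hes5, Aldoc, Sox9, Aldh1l1 and Gjb6). The sums of the 12 were 23609 to 25999 against 10386 to 31468 CPM. Log2 fold changes of endfeet over whole astrocyte TRAP for the 5 ran from -4.54 (Hes5) to -1.44 (Gjb6). That of Aldh1l1, whose promoter drives the tagged protein, was -2.385. What part RNA of these cell types has in the values below was not tested. In such bulk libraries, fewer cells of a type and less RNA per cell cannot be told apart.

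**Figure D1:**
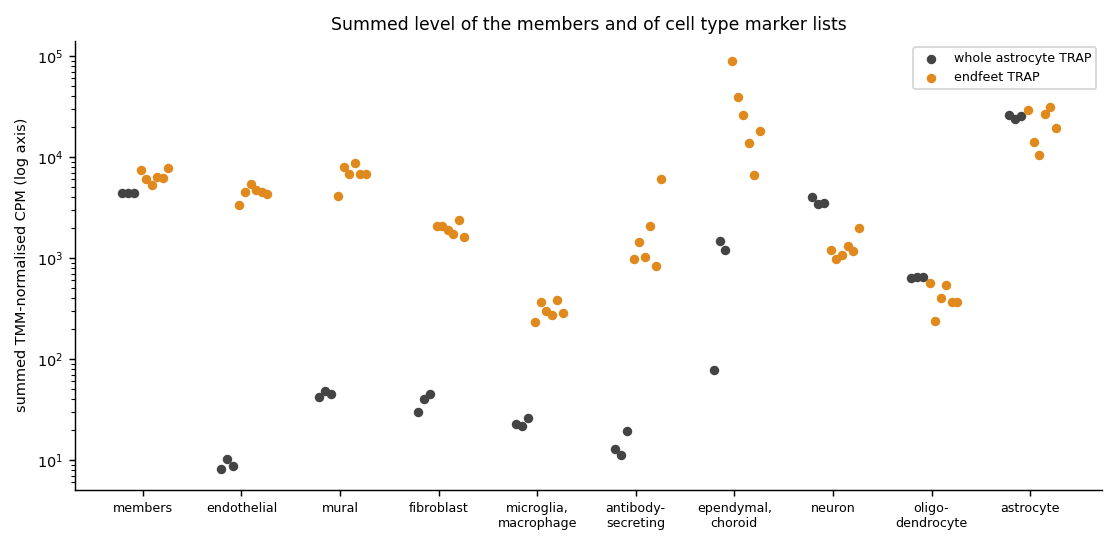
Summed TMM-normalised CPM (log axis) of the 69 translocation and transport genes and of 9 lists of cell type markers, 1 point per library, whole astrocyte TRAP in grey and endfeet TRAP in orange. The translocation and transport genes moved from 4362 to 4442 CPM to between 5236 and 7748 CPM, while the endothelial, mural and fibroblast sums were higher in every endfeet library by far more.

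Summed over all 69 genes, the machinery took a larger share of the ribosome-bound mRNA in endfeet TRAP, but its role groups differed. The translocon sum was 839 to 953 CPM against 1725 to 3253 CPM. That of the signal recognition particle and its receptor was lower, at 732 to 751 against 346 to 637 CPM. The sums of COPII and of COPI overlapped between the groups. The 69 genes held 0.457% to 0.463% of all gene counts in the whole astrocyte libraries and 0.599% to 0.731% in the endfeet libraries, without overlap. By edgeR's quasi-likelihood test, Benjamini-Hochberg adjusted over all genes with a threshold of 0.05, 20 of the 63 tested genes were higher in endfeet TRAP (31.7%, against 20.7% of all genes tested) and 5 were lower (7.9%, against 13.9% of all genes). The other 38 did not pass the threshold. The median log2 fold change of endfeet over whole astrocyte TRAP was 0.68 for the 63 genes and 0.10 for all genes. All endfeet libraries lay above all whole astrocyte libraries for 24 of the 63 genes (38.1%, against 18.9% of all genes), and below them for 10 (15.9%, against 23.8%). The 5 of the former that did not pass the test were Sec31a, Spcs2, Srprb, Ssr4 and Tmed2, and the 5 of the latter Cope, Golga7, Sec13, Sec23b and Sec61b. Counts by role below cover few genes each and are to be read against 20.7% of all genes higher and 13.9% lower.

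Single libraries moved these counts. Higher genes numbered 10 of 64 tested without whole astrocyte library 2 and 12 of 64 without whole astrocyte library 3. In these fits 11.8% and 13.1% of all genes were higher. Lower genes numbered 2 of 64 and 3 of 64 without whole astrocyte libraries 1 and 3, when 7.9% and 8.2% of all genes were lower. They numbered 11 of 63, 9 of 63 and 8 of 62 without endfeet libraries 1, 4 and 6. In these fits 18.4%, 15.6% and 16.8% of all genes were lower. The shares of all genes thus moved together with these counts. Without both endfeet libraries 1 and 6, 29 of 62 tested genes were higher (beside 28.2% of all genes) and 13 of 62 lower (beside 23.6% of all). These libraries had the highest choroid plexus and antibody-secreting marker sums, and this alternative was chosen after the values were seen. Of the 25 genes that passed the test, 12 kept the call in each of 20 alternatives: Srpr, Srp14, Sec61a1, Sec62, Sec63, Ssr1, Spcs3, Copz1, Tmed9, Kdelr1, Kdelr2 and Golga4. None of the 25 changed sign. Where a call is said below to be lost, the highest adjusted p is the highest over these alternatives. Of the 38 genes without a call, 12 passed without endfeet library 1 (Copb1, Cope, Copg1, Golga1, Golga3, Golga7, Kdelr3, Sec13, Sec24b, Sec31a, Srp68 and Ssr2), 4 without endfeet library 4 (Golga7, Sec13, Sec23a and Sec61g) and 5 without endfeet library 6 (Cope, Kdelr3, Srp72, Srp9 and Tmed3).

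**Figure D2:**
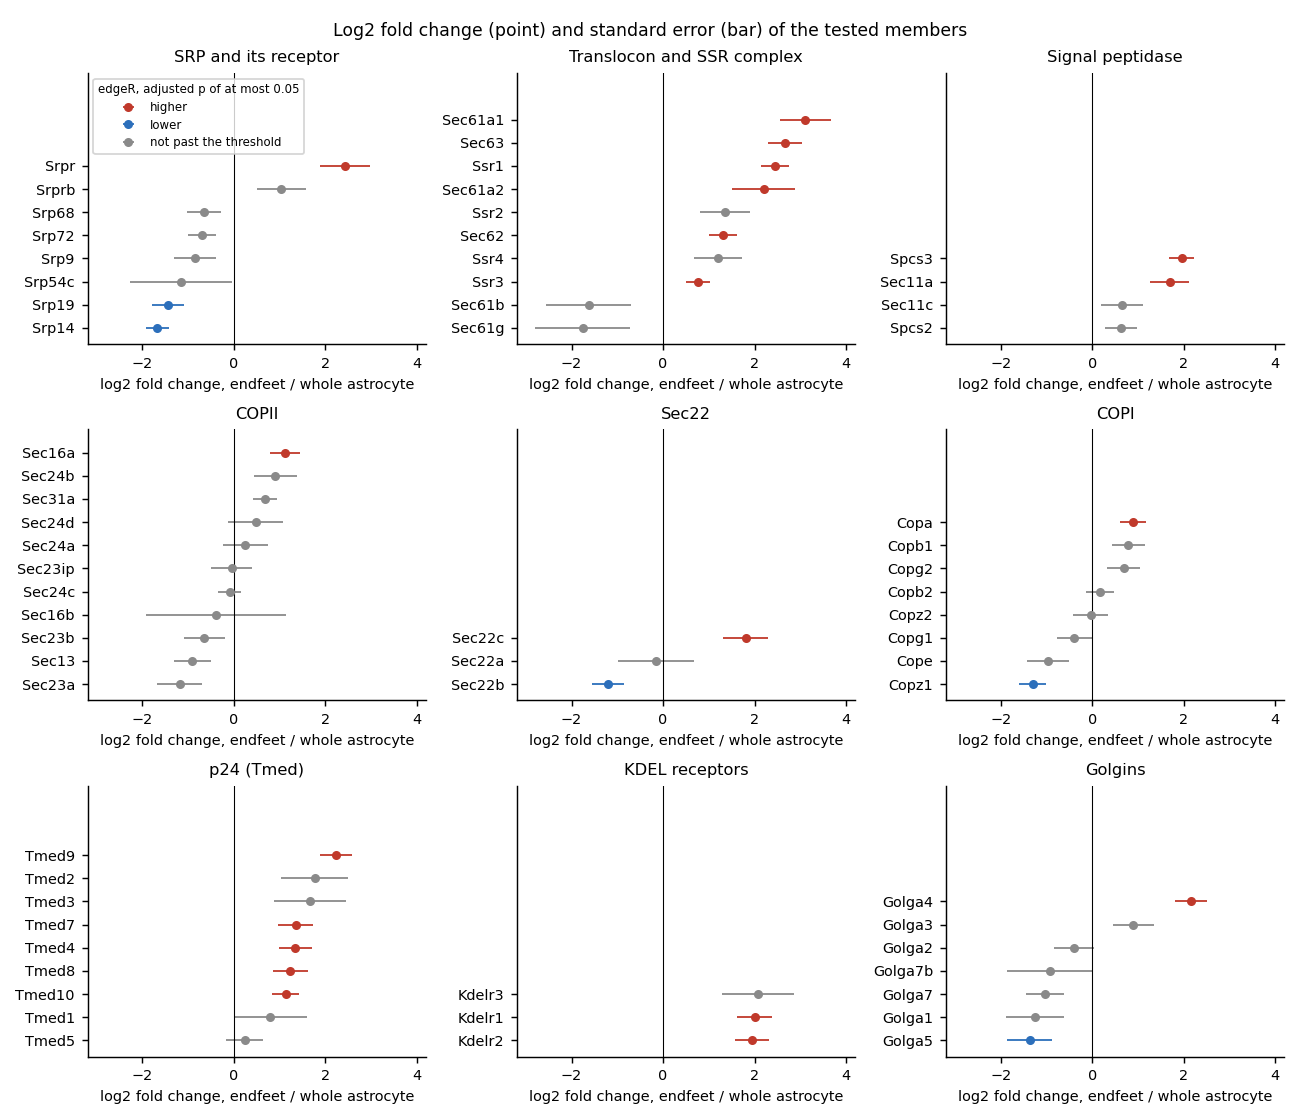
Log2 fold change of endfeet over whole astrocyte TRAP (horizontal axis) for the 63 tested genes by role, with points for the estimate and bars for 1 standard error. Red points are the 20 genes higher in endfeet TRAP and blue points the 5 lower ones by edgeR with an adjusted p of at most 0.05, and grey points did not pass. Points lie to the right of 0 for all Tmed genes, KDEL receptors and signal peptidase subunits, and on both sides for the coats.

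For the signal recognition particle and its receptor, the test over 8 genes called 1 as higher in endfeet TRAP and 2 as lower and left 5 without a call, with a median log2 fold change of -0.77. Srpr (chromosome 9, 35200175 to 35247973, plus strand, mm10), which encodes the receptor subunit that docks the particle at the ER, stood at 7.74, 7.36 and 8.26 CPM in the whole astrocyte libraries and at 13.7 to 62.4 CPM (median 44.2) in the endfeet libraries. Every endfeet library exceeded every whole astrocyte library, library 1 by the least. The log2 fold change was 2.43 (adjusted p = 0.00429, SE 0.551). Its partner Srprb, which anchors the receptor in the membrane, had a log2 fold change of 1.03 (adjusted p = 0.153, SE 0.536).

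Srp14 forms with Srp9 the domain of the particle that slows elongation. Srp14 stood at 199, 229 and 203 CPM in whole astrocyte TRAP and at 47.7 to 78.5 CPM (median 67.6) in endfeet TRAP. The groups were far apart, with a log2 fold change of -1.67 (adjusted p = 0.00024, SE 0.254). Srp19, which binds the RNA of the particle, stood at 84.8, 79.8 and 72.8 CPM against 16.7 to 36.1 CPM (median 32.9), again without overlap (log2 fold change -1.44, SE 0.350, adjusted p = 0.00655). The call of Srp19 was lost without whole astrocyte library 1 (adjusted p = 0.0555). Srp9, Srp68, Srp72 and the copy Srp54c had log2 fold changes of -0.84, -0.65, -0.70 and -1.16 and did not pass the threshold. Without endfeet library 6, Srp9 had -1.37 (adjusted p = 0.00176).

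The translocon and the Ssr complex held the largest difference of the set, that of Sec61a1. Of 10 genes 6 were higher in endfeet TRAP and none lower, with a median log2 fold change of 1.33, and their summed level was 839 to 953 CPM in whole astrocyte TRAP and 1725 to 3253 CPM in endfeet TRAP. Sec61a1 (chromosome 6, 88503579 to 88518905, minus strand), the pore-forming subunit of the channel, stood at 19.4, 16.7 and 23.0 CPM against 102 to 448 CPM (median 118). Endfeet libraries 2 to 6 lay close together and library 1 was far above them. The log2 fold change was 3.11 (adjusted p = 0.00082, SE 0.554), and 2.53 without endfeet library 1. In library series B alone, which by the numbers the libraries carry holds endfeet libraries 4 to 6 and all whole astrocyte libraries, it was 2.39 (adjusted p = 0.000688). Its paralog Sec61a2 stood at 14.7, 12.3 and 12.2 CPM against 9.20 to 124 CPM (median 57.4). One endfeet library, library 2, lay below the whole astrocyte range and the others above it, and the log2 fold change of 2.20 (adjusted p = 0.0251, SE 0.689) kept its call in 14 of 20 alternatives, losing it without any 1 of the whole astrocyte libraries and without endfeet library 3 or 5 (highest adjusted p = 0.168).

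Sec62 and Sec63 are membrane proteins that work with the channel, and Sec63 recruits the chaperone BiP to it. Sec63 stood at 49.6, 50.9 and 44.6 CPM in whole astrocyte TRAP and at 141 to 447 CPM (median 311) in endfeet TRAP, and Sec62 at 179, 174 and 185 CPM against 267 to 632 CPM (median 432). For both genes the lowest endfeet library was above the highest whole astrocyte library. The log2 fold changes were 2.67 (adjusted p = 0.000114, SE 0.367) for Sec63 and 1.31 (adjusted p = 0.00453, SE 0.300) for Sec62. The small channel subunits Sec61b and Sec61g had values of the other sign, -1.63 (adjusted p = 0.195, SE 0.933) and -1.76 (adjusted p = 0.206, SE 1.03), and neither passed the threshold. Without endfeet library 4, where it was highest, Sec61g had -3.42 and passed (adjusted p = 0.00866). Sec61b had -2.25 without endfeet library 3 (adjusted p = 0.0691) and passed in series B alone (-2.76, adjusted p = 0.0149). The 1 transcript counted for Sec61b, of 4 matched, was scarce everywhere, at 2.55 to 2.91 CPM in whole astrocyte TRAP and 0.188 to 2.30 CPM in endfeet TRAP.

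The Ssr genes encode the translocon-associated complex, which sits beside the channel and assists some signal peptides. Ssr1 stood at 111, 93.7 and 105 CPM in whole astrocyte TRAP and at 381 to 762 CPM (median 519) in endfeet TRAP. The groups did not overlap, with a log2 fold change of 2.45 (adjusted p = 5.05e-05, SE 0.304). Ssr3, the most abundant translocon mRNA per kilobase, had a log2 fold change of 0.76 (adjusted p = 0.0400, SE 0.265), a call kept in 11 of 20 alternatives. The call was lost without any 1 of the whole astrocyte libraries or without endfeet library 4 or 5 (highest adjusted p = 0.255). It was also lost with the other count filters, with counts summed over transcripts and with the replicate number as a block. Ssr2 and Ssr4 had log2 fold changes of 1.35 (adjusted p = 0.0741) and 1.20 (adjusted p = 0.0958).

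Signal peptidase removes the signal from the chain as it enters the ER. Of its 4 genes with counts 2 were higher in endfeet TRAP and the other two did not pass, with a median log2 fold change of 1.16. Spcs3, an accessory subunit, stood at 54.8, 46.4 and 53.0 CPM against 170 to 271 CPM (median 186), with all endfeet libraries above. The log2 fold change was 1.95 (adjusted p = 0.000144, SE 0.277). Sec11a, a catalytic subunit, stood at 14.9, 12.2 and 14.4 CPM against 27.4 to 56.6 CPM (median 44.4). These groups did not overlap either, and the log2 fold change was 1.69 (adjusted p = 0.00759, SE 0.422), with the call lost without whole astrocyte library 2 (highest adjusted p = 0.0783). The other catalytic subunit, Sec11c, had a log2 fold change of 0.64 (adjusted p = 0.304, SE 0.459), and Spcs2 of 0.63 (adjusted p = 0.181, SE 0.348).

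**Figure D3:**
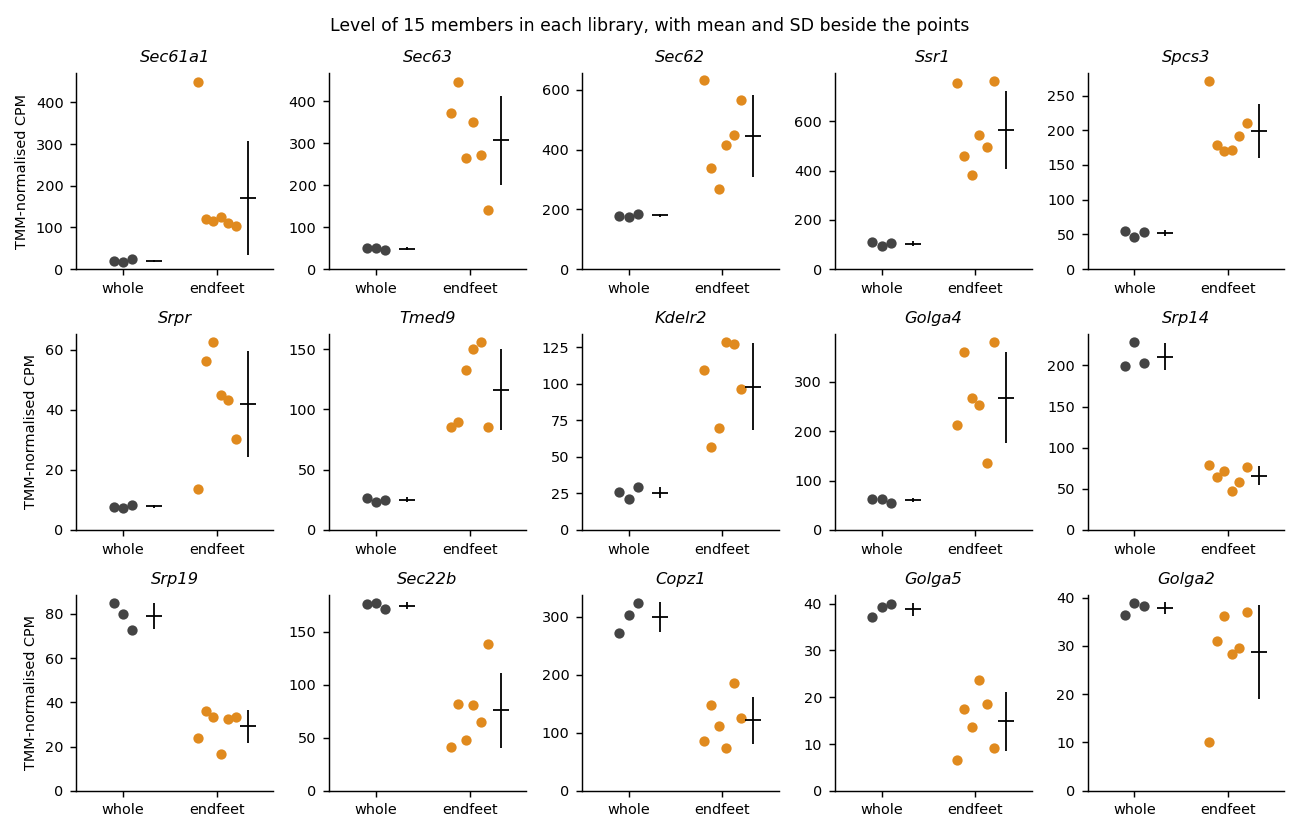
TMM-normalised CPM of 15 genes in each library (vertical axes, each from 0), with whole astrocyte TRAP in grey, endfeet TRAP in orange, and a cross for the mean with a bar of 1 SD. Sec61a1 shows endfeet library 1 at 448 CPM above the other endfeet libraries, and Golga2 shows endfeet libraries within and below the narrow whole astrocyte range.

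Few coat genes passed the test. Among the 19 tested coat subunits of COPII and COPI, 2 were higher and 1 was lower in endfeet TRAP, with a median log2 fold change of -0.04. Of 11 COPII genes the test called only Sec16a, which organises the ER sites where COPII vesicles form. Sec16a stood at 62.5, 61.1 and 63.4 CPM against 73.1 to 202 CPM (median 136), with all endfeet libraries above. Its log2 fold change of 1.11 (adjusted p = 0.0202, SE 0.333) did not pass without any 1 of the whole astrocyte libraries nor with the library series taken into account (highest adjusted p = 0.131).

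The other COPII genes had log2 fold changes from -1.18 to 0.91. In the inner coat, Sec23a had -1.18 (adjusted p = 0.0795, SE 0.491) and Sec23b -0.65, while the cargo-binding Sec24a, Sec24b, Sec24c and Sec24d had 0.25, 0.91, -0.09 and 0.48. In the outer coat, Sec13 had -0.91 (adjusted p = 0.102, SE 0.408) and Sec31a 0.68 (adjusted p = 0.0643, SE 0.268). For Sec13 all endfeet libraries lay below the whole astrocyte libraries, and for Sec31a all lay above. Sec23ip, a partner of Sec23, had -0.04, and Sec16b -0.40 at a level of at most 1.15 CPM in any library. None of these passed the test over all libraries. Without endfeet library 4, where it was highest, Sec23a had -1.90 (adjusted p = 0.00100), and without whole astrocyte library 1 Sec16b had 0.58.

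Sec22 proteins are relatives of SNAREs, the proteins that fuse vesicles with their target. Sec22b, the SNARE of ER to Golgi traffic, was lower in endfeet TRAP, at 40.9 to 139 CPM (median 73.1) against 177, 177 and 171 CPM. No endfeet library reached the whole astrocyte range, and the log2 fold change was -1.21 (adjusted p = 0.0182, SE 0.354), lost without whole astrocyte library 1 or 3 and with the library series as a covariate (highest adjusted p = 0.0960). Sec22c, by contrast, was higher, at 36.9 to 140 CPM (median 54.7) against 20.5, 19.3 and 18.8 CPM. The log2 fold change was 1.80 (adjusted p = 0.0116, SE 0.485), lost without whole astrocyte library 2 or 3 (highest adjusted p = 0.0747). Sec22a had -0.16 (adjusted p = 0.903, SE 0.837) and a range from 1.69 to 51.1 CPM over the endfeet libraries, with -0.96 without endfeet library 1.

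Coatomer, the COPI coat, retrieves material from the Golgi to the ER. Of its 8 genes 1 was higher and 1 lower. Copz1, for the zeta subunit, stood at 273, 303 and 323 CPM in whole astrocyte TRAP and at 74.5 to 185 CPM (median 118) in endfeet TRAP. The groups were apart, with a log2 fold change of -1.30 (adjusted p = 0.00399, SE 0.293). Copa, for the alpha subunit, stood at 136, 129 and 137 CPM against 181 to 325 CPM (median 248), with all endfeet libraries above. Its log2 fold change of 0.89 (adjusted p = 0.0245, SE 0.278) was lost without any 1 of the whole astrocyte libraries and without endfeet library 5 (highest adjusted p = 0.170). The others had 0.78 (Copb1), 0.68 (Copg2), 0.17 (Copb2), -0.04 (Copz2), -0.40 (Copg1) and -0.97 (Cope) and did not pass. Without endfeet library 1, where it was highest, Copg1 had -0.83 and passed (adjusted p = 0.00838).

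The p24 proteins encoded by Tmed genes span the membrane and sort cargo between ER and Golgi. Tmed8 belongs here by its symbol and was not given a place in the membrane. Of 9 tested genes 5 were higher in endfeet TRAP and none was lower, all 9 had positive values and the median log2 fold change was 1.34. Tmed9 (chromosome 13, 55573732 to 55597697, plus strand) stood at 26.9, 22.8 and 25.1 CPM against 85.5 to 156 CPM (median 111). Its lowest endfeet library exceeded all whole astrocyte libraries, and the log2 fold change was 2.23 (adjusted p = 0.000334, SE 0.352). Tmed10, the most abundant of them per kilobase in both groups, stood at 81.5, 72.0 and 81.5 CPM against 134 to 272 CPM (median 153). For Tmed10 the groups did not overlap either, with a log2 fold change of 1.13 (adjusted p = 0.0114, SE 0.303).

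Tmed4 stood at 29.3, 25.9 and 36.4 CPM against 46.6 to 109 CPM (median 73.6), Tmed7 at 72.3, 59.0 and 64.7 CPM against 83.1 to 271 CPM (median 162), and Tmed8 at 45.9, 35.3 and 45.0 CPM against 53.1 to 134 CPM (median 100.5). In each of these genes all endfeet libraries lay above all whole astrocyte libraries. The log2 fold changes were 1.34, 1.35 and 1.23 (adjusted p = 0.0120, 0.0144 and 0.0231). The calls of Tmed4, Tmed7, Tmed8 and Tmed10 were each lost when certain single whole astrocyte libraries were left out, that of Tmed8 without any 1 of them and without endfeet library 4 or 5, with highest adjusted p of 0.113, 0.106, 0.253 and 0.110. Tmed4 lost it without library 1 or 2, and Tmed7 and Tmed10 without library 2 or 3. Tmed2, Tmed3, Tmed1 and Tmed5 had log2 fold changes of 1.77 (adjusted p = 0.0781), 1.67 (adjusted p = 0.119), 0.80 and 0.23. In endfeet library 6, Tmed1 had 2 counts and Tmed3 had 4, at the limit of that library.

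KDEL receptors catch ER chaperones that have escaped to the Golgi and send them back. Kdelr1 stood at 12.4, 10.9 and 13.9 CPM in whole astrocyte TRAP and at 41.9 to 57.5 CPM (median 48.7) in endfeet TRAP. Kdelr2 stood at 25.9, 21.4 and 29.2 CPM against 56.7 to 129 CPM (median 103). Both genes were higher in all endfeet libraries, with log2 fold changes of 2.00 (adjusted p = 0.00159, SE 0.391) and 1.94 (adjusted p = 0.00149, SE 0.377). Kdelr3 had a similar value of 2.07 with a wider error (adjusted p = 0.0583, SE 0.789) and ranged from 2.74 to 17.95 CPM over the endfeet libraries.

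Golgins are long coiled-coil proteins that tether vesicles at the Golgi. Of 7 Golga genes 1 was higher and 1 lower. Golga4, for a golgin of the trans-Golgi, stood at 62.7, 63.3 and 55.2 CPM against 136 to 380 CPM (median 260). All endfeet libraries were above, with a log2 fold change of 2.15 (adjusted p = 0.000419, SE 0.349). Golga5, for a golgin anchored in the membrane, stood at 37.2, 39.2 and 39.9 CPM against 6.57 to 23.7 CPM (median 15.6). All endfeet libraries were below, but the log2 fold change of -1.38 (adjusted p = 0.0428, SE 0.485) kept its call in only 12 of 20 alternatives. The call was lost without any 1 of the whole astrocyte libraries, and likewise without endfeet library 2 or 3. It was also lost in thinned libraries, with the library series as a covariate and with the replicate number as a block (highest adjusted p = 0.150).

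Golga2 encodes GM130, the protein by which the study stained the Golgi of endfeet. Its mRNA stood at 36.4, 38.8 and 38.3 CPM in whole astrocyte TRAP and at 10.1 to 37.0 CPM (median 30.3) in endfeet TRAP. Endfeet libraries 1 to 5 lay below the whole astrocyte range, library 1 far below, and library 6 within it. The log2 fold change of -0.40 (SE 0.445) did not pass the threshold (adjusted p = 0.517). Golga3, Golga1, Golga7 and Golga7b had log2 fold changes of 0.89, -1.26, -1.03 and -0.93 and did not pass either. Without endfeet library 1, Golga1 had -1.83 and passed (adjusted p = 0.0154), and Golga7b had -1.94 (adjusted p = 0.0627). Golga7, which assists a palmitoyltransferase and is no tether, lay below the whole astrocyte libraries in all endfeet libraries.

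**Figure D4:**
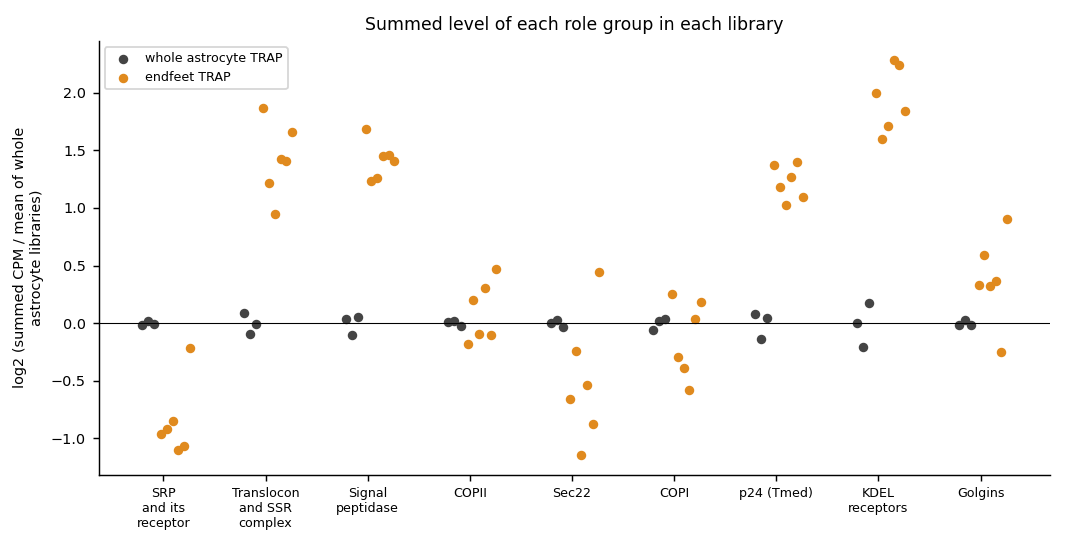
Summed CPM of each role group in each library as log2 of its ratio to the mean of the whole astrocyte libraries (vertical axis), whole astrocyte TRAP in grey and endfeet TRAP in orange. Every endfeet point lies above the whole astrocyte points for the translocon, signal peptidase, Tmed and KDEL receptor groups and below them for the signal recognition particle group, while the points of COPII, COPI and the Sec22 genes lie on both sides of 0.

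Levels between genes were compared per kilobase of the 1 transcript counted for each gene (RPKM), which may not stand for the whole gene. In whole astrocyte TRAP the order began with Srp14 at 264 ± 20.2 RPKM (SD, n = 3), Copz1 at 179 ± 15.2 and Ssr3 at 164 ± 15.5, of which Copz1 and Ssr3 differed by less than the larger of their SDs. In endfeet TRAP it began with Ssr3 at 278 ± 68.2 RPKM (SD, n = 6), followed by Tmed10 at 116 ± 35.7 and Sec62 at 112 ± 34.4, and Tmed10 and Sec62 were not separable by their spread. Srp14 then stood at 82.8 ± 14.8 RPKM, within 1 SD of Tmed9 at 82.0 ± 23.5. Over the 63 genes the mean RPKM of both groups had a Spearman correlation of 0.619 across genes, which share their libraries and are not independent replicates.

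Several genes come in pairs that encode alternative subunits of 1 complex. The ratio within a pair describes their balance in the ribosome-bound RNA, read from 1 transcript per gene. Of 13 listed pairs 11 had both genes at enough counts, and the log2 ratio of CPM was compared by a two-sided exact permutation test that enumerated all 84 assignments of the libraries and can give no p under 0.0119. No pair passed after Benjamini-Hochberg adjustment over the 11. A single pair at the smallest possible p could not pass this adjustment, so the outcome says little about any single pair. For 3 pairs the unadjusted p was at most 0.05, and their groups did not overlap. The log2 ratio of Copz1 to Copz2 was 2.79 ± 0.135 (SD, n = 3) in whole astrocyte TRAP and 1.503 ± 0.626 (SD, n = 6) in endfeet TRAP, a difference of -1.29 (exact p = 0.0119, adjusted p = 0.0873). The ratio of Copg1 to Copg2 differed by -1.15 (exact p = 0.0238, adjusted p = 0.0873) and that of Sec11a to Sec11c by 1.03 (exact p = 0.0238, adjusted p = 0.0873). The former depends on the transcript counted. Log2 fold changes of Copg1 and Copg2 were -0.40 and 0.68 with 1 transcript each, and -0.31 and -0.05 with counts summed over transcripts. Ratios among the 3 KDEL receptor genes differed by 0.06 to 0.36, with exact p of 0.50 or more.

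The machinery was then described by where its proteins sit, a division made after the values were seen and given without a test. Tmed8 was placed in neither class. Of 30 tested genes for proteins that span the ER or Golgi membrane, 15 were higher and 2 (Sec22b and Golga5) lower, with a median log2 fold change of 1.34. Of 32 tested genes for proteins that reach these membranes from the cytosol, 4 (Srpr, Sec16a, Copa and Golga4) were higher and 3 (Srp14, Srp19 and Copz1) lower, with a median of -0.40. Higher and lower genes were 50% and 6.7% of the membrane-spanning class and 12.5% and 9.4% of the cytosolic class. Among all genes tested, 20.7% were higher and 13.9% lower. Transcript length moved with the fold change over all genes, whose median log2 fold change was -0.74 for the shortest transcripts (the first of 4 equal classes) and 0.81 for the longest. Among genes with transcripts of at most 3050 bp, the medians were 1.34 for 19 membrane-spanning and -0.91 for 13 cytosolic proteins. Among longer transcripts they were 1.35 for 11 and 0.25 for 19. The part of length in single values was not tested.

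**Figure D5:**
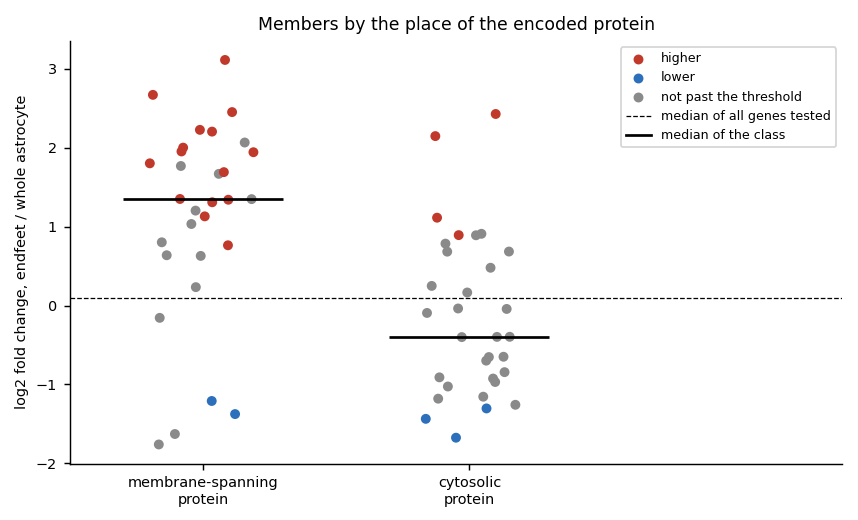
Log2 fold change of endfeet over whole astrocyte TRAP (vertical axis) for 30 genes of membrane-spanning and 32 genes of cytosolic proteins, 1 point per gene, coloured by the edgeR call. The solid lines are the class medians of 1.34 and -0.40 and the dashed line is the median of all genes tested, 0.10.

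The partners of this machinery were taken from a list of 98 further genes, all tested, of which 40 were higher in endfeet TRAP (40.8%, against 20.7% of all genes) and 15 lower (15.3%, against 13.9%), with a median log2 fold change of 0.79. Of 19 ER folding factors 17 were higher and none lower, with a median of 2.50. Among them were Creld2 (3.39), the chaperone Hyou1 (3.29), the disulfide isomerase Pdia3 (2.97) and the oxidase Ero1l (2.95). Hspa5, which encodes BiP, stood at 145, 121 and 160 CPM in whole astrocyte TRAP and at 377 to 1594 CPM (median 598) in endfeet TRAP. The highest of these was library 1, also the highest in choroid plexus markers.

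Of 11 oligosaccharyltransferase genes, which attach sugars to chains at the translocon, 6 were higher and none lower, led by Stt3a (2.86), Magt1 (2.31), Rpn1 (2.17) and Ddost (2.05). Of 9 cargo receptor genes 6 were higher, with Lman1 (2.08), Lman2 (2.00), Mcfd2 (1.67) and Surf4 (1.61) foremost, and none was lower. Of 11 genes for sensors and effectors of the unfolded protein response 6 were higher, among them Ern1 (4.16), Creb3l2 (3.33), Atf6 (2.73) and Xbp1 (2.59), and Atf4 was lower (-1.12). The median log2 fold changes of these lists were 1.42, 1.53 and 2.11, beside 1.33 for the translocon.

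The 3 other lists are to be read against the same 20.7% and 13.9% of all genes. Of 17 coat regulators 6 were lower, including the GTPases Arf3 (-1.83), Arf4 (-1.75) and Rab2a (-1.64), and 1 was higher, Mia3 (2.94), a membrane protein that loads large cargo such as collagen into COPII carriers. Of 16 ER to Golgi SNAREs and tethers 4 were lower, with Bet1 (-3.44), Bnip1 (-3.02) and Bet1l (-2.44) at the front, and 1 was higher, the giant golgin Golgb1 (3.71). Of 15 membrane insertion genes, with a median log2 fold change of -0.05, 3 were higher (Tram2 at 5.69, Tram1 at 2.68 and Emc1 at 2.31) and 4 were lower, Asna1 (-2.05) among them. All values in parentheses are log2 fold changes past the threshold.

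Many ER genes are controlled by the unfolded protein response through short promoter elements, so the promoters were read for their letters. RefSeq promoters (GRCm38.p6, from 250 bases before to 50 after the start) matched 57 of the 69 genes. The ER stress element, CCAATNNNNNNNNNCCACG on either strand, was in 0 of these 57 and in 0.137% of all 27025 promoters. It was in 7 of 80 promoters of the partner list, at 8 sites, and all 7 genes were folding factors higher in endfeet TRAP. Of all 19 folding factors 17 were higher (89.5%), so the direction of these 7 is that of their list. Windows of 4 of them are shown because they encode chaperones and a co-chaperone that fold chains as they leave the channel, with the fixed letters of the element, as read in the direction of the gene, in capitals. On the opposite strand the element reads CGTGG and ATTGG.
Hspa5 (chr2:34772010-34772058, plus strand): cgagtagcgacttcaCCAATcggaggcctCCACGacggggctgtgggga
Canx (chr11:50325785-50325833, minus strand): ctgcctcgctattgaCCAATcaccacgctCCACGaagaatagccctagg
Dnajc3 (chr14:118937812-118937860, plus strand): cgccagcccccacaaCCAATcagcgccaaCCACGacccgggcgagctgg
Calr (chr8:84847060-84847108, minus strand): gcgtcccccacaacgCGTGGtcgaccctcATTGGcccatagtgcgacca
The element began at base -65 from the start in Hspa5 and at -145, -105 and -162 in Canx, Dnajc3 and Calr.

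A second element, TGACGTGG on either strand, bound in its longer form by XBP1, was in 6 of the 57 promoters (10.5%) and in 0.714% of all promoters, or 1.07% of those of tested genes. The 6 genes were Copb1, Copb2, Kdelr3, Sec16b, Sec23a and Sec24d. None of them passed the test, beside 38 of the 63 tested genes that did not. ERSE-II, a shorter relative of the first element with 1 base between ATTGG and CCACG, was in none of the 57 and in 0.0444% of all. Of the 80 promoters of the partner list, 3 held the second element and 2 held ERSE-II (Dnajb11 and Krtcap2). Windows around the second element are shown for 3 of the genes, 2 for coat subunits and 1 for the KDEL receptor, to set their letters beside those of the chaperones, with the 8 letters in capitals.
Kdelr3 (chr15:79516363-79516400, plus strand): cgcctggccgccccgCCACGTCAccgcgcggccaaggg
Copb1 (chr7:114254686-114254723, minus strand): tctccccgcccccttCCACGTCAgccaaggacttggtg
Sec24d (chr3:123267455-123267492, plus strand): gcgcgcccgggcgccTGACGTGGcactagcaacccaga
A match describes letters only, and the promoters without one say nothing of the factors that bind there.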

How the data were processed

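RNA bound to tagged ribosomes was sequenced after NuGEN Ovation amplification as reads of 50 bp in 9 libraries. The deposited counts are raw counts per Ensembl transcript that the authors made with the Eoulsan pipeline: Bowtie alignment to mm10, removal of reads with several alignments, and HTSeq-count (HTSeq 0.5.3 and bcl2fastq 1.8.4 in the submitters' processing notes). No replicates were pooled.

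Of 75466 transcripts, 73157 were matched to GENCODE M21 (98.31% to 98.57% of counts), and 1 transcript stood for a gene, the one whose CPM summed over libraries was highest. Groups were compared with edgeR 4.0.16 (TMM, filterByExpr, glmQLFit, glmQLFTest; R 4.3.3), and p-values were adjusted by Benjamini-Hochberg with a threshold of 0.05. Standard errors are the absolute log2 fold change over the square root of F. The pairs of paralogs were tested on log2 of CPM plus 1. Depth was 35956972 to 43487888 counts in whole astrocyte TRAP and 2318745 to 13445661 in endfeet TRAP, and amplified reads are not independent molecules.

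The genes, partner list, marker lists and tests were chosen with earlier results of these data known. All genes that match the rule could be named. Values per library are given for up to 5 genes past the threshold in each role group, by size of change, and for Golga2, and up to 4 genes are named per partner list. Atf4 and Hspa5, and the genes of the second promoter element, were named after their values were seen.

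Alternatives were DESeq2 1.42.0, limma voom (limma 3.58.1) with group weights, DESeq2 size factors, other count filters, the library series, the replicate number as a block, thinned libraries, counts summed over transcripts, and each library left out. The series comes from the numbers the libraries carry (endfeet libraries 1 to 3 against all others), whose meaning is not stated. Data with 14403 genes were simulated for this comparison. There edgeR called 26% of changes of 2 and 72% of changes of 4 on the log2 scale. It called 0 in the wrong direction and 3 genes that had not been changed. Common dispersions of the real libraries were 0.724 (endfeet) and 0.0141 (whole astrocyte). These rates may not hold for groups that differ so much in spread. Python 3.11.15, numpy 2.4.6 and pandas 2.3.3 handled the tables.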

Additional observations from a re-analysis of the deposited data

Results flagged for a closer look

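For 12 of the 63 tested genes 1 endfeet library stood apart from the others by a gap that exceeded Dixon's critical value. Chance gives about 1 in 20 such groups for independent, normally distributed values. The values here were CPM without logarithm, from genes that share the same endfeet libraries, so that rate may not hold. The share of all tested genes with such a gap is not given, so the count is not a trait of these genes. Library 1 was the far value for 7 of them: Sec61a1 at 448 CPM (next 125), Copg1 at 282 CPM (next 109.5), Tmed10 at 272 CPM, Sec22a at 51.1 CPM, Golga7b at 46.9 CPM and Tmed2 at 26.8 CPM on the high side, and Golga2 at 10.1 CPM on the low side. Library 6, the shallowest, was high for Golga3 at 268 CPM, Srp9 at 219 CPM and Srp72 at 189 CPM. Library 4 was high for Sec23a at 174 CPM and for Sec61g at 18.5 CPM.

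Library 1 also had the highest choroid plexus marker sum (88726 CPM) and library 6 the highest sum of antibody-secreting cell markers (6083 CPM). Their part in these values was not tested. Of the 12 genes, Sec61a1 and Tmed10 passed the test between the groups, and both passed it without library 1 and without library 6. Copg1 passed it as lower without library 1 (log2 fold change -0.83, adjusted p = 0.00838 by edgeR), as did Srp9 and Srp72 without library 6, Golga3 as higher without library 1, and Sec23a and Sec61g as lower without library 4.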

How the results depend on the processing

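With limma voom, 31 of 63 genes were higher and 17 lower (beside 27.2% and 31.1% of all genes), and the median of all genes moved from 0.10 to -0.29. Lower genes numbered 10 of 55 tested with at least 10 counts in every library (beside 23.3% of all genes). They numbered 9 of 62 in library series B alone (endfeet libraries 4 to 6 and all whole astrocyte libraries), beside 19.7% of all genes. Without endfeet libraries 1 and 6 they numbered 13 of 62 (beside 23.6% of all genes). With single libraries left out, higher genes ranged from 10 to 26 and lower genes from 2 to 11, of 62 to 64 tested. The partner list, with 98 tested, ranged from 33 to 48 higher and from 11 to 18 lower. In the same fits 11.8% to 23.5% of all genes were higher and 7.9% to 18.4% lower. Whole astrocyte and endfeet libraries with the same number did not deviate together (mean correlation 0.0156, against -0.00369 for other numbers). No pairing by number was seen, but 3 same-numbered pairs are too few to exclude it. The main test used no pairing. With the replicate number as a block, 14 of 62 genes were higher and 8 lower (beside 16.0% and 13.8% of all genes), and the median of all genes was -0.31. The block kept 17 of the 25 calls and lost those of Copa, Golga5, Sec11a, Sec22c, Sec61a2, Ssr3, Tmed7 and Tmed8. No other alternative moved a count of these genes or of the partner list by more than 1.5 times. No pair of paralogs passed under any, but with libraries left out the smallest possible p is higher still. These settings could thus hardly have shown a pass.

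Of the 38 genes not past the threshold, 8 changed sign somewhere. Copb2 had -0.0027 with at least 10 counts in every library, -0.061 in series B and -0.083 without endfeet libraries 1 and 6. Copg2 had -0.052 and Sec22a 0.027 with counts summed over transcripts. Copz2 had 0.0043 and Sec23ip 0.13 with the series as a covariate, and 0.29 and 0.14 in thinned libraries, where Sec24c had 0.035. Sec23ip had 0.00093 in series B. Sec24a had -0.12 with limma voom, -0.58 with the block and -0.030 without endfeet libraries 1 and 6. With single libraries left out, the log2 fold changes ranged from -0.20 to 0.14 (Copz2), -0.74 to 0.58 (Sec16b), -0.96 to 0.018 (Sec22a), -0.29 to 0.15 (Sec23ip) and -0.16 to 0.42 (Sec24a). The log2 ratio of Kdelr1 to Kdelr2 differed by -0.19 in series B and by -0.12 to 0.15 with single libraries left out, and that of Kdelr2 to Kdelr3 by -0.11 in thinned libraries and by -0.0013 to 0.56. The cause was not tested. In endfeet library 6, 3 counts equalled 1.37 CPM. Sec16b, Sec61b, Srp54c and Tmed1 were under it there, and Tmed3 near it.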
